A study of Mus musculus with 2 samples.

Results

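Sirtuins are NAD-dependent enzymes that take acetyl and other acyl groups off lysines of proteins. Because each reaction consumes NAD, their activity is tied to the metabolic state of the cell, and in the kidney they have been studied in energy metabolism and stress resistance of tubule and glomerular cells. Mammals have 7 of them. SIRT1, SIRT6 and SIRT7 are mainly nuclear, SIRT2 is mainly cytosolic, and SIRT3, SIRT4 and SIRT5 are mitochondrial. The family was taken as all gene probes of the array whose RefSeq accession belongs to Sirt1 to Sirt7. These were 10 of 39426 gene probes, and they covered all 7 genes of 20017 genes with a named probe. All 10 probes were well above background and unsaturated on both arrays, so none of the 7 genes was lost to the filter on dim probes.

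The TG+STZ array carried kidney RNA of transgenic mice labelled as overexpressing Sirt1, and the WT+STZ array RNA of wild-type mice. Both groups were male with a C57BL/6J background. At an age of 8 weeks they were given streptozotocin (STZ), which destroys the beta cells of the pancreas, dissolved in citrate buffer of 100 mmol/l, and they were 32 weeks old when glomerular regions were dissected. Every animal was therefore STZ-treated, and untreated mice were not analysed here. The title of the series speaks of Sirt1 of the renal tubule, and the labels give neither the promoter of the transgene nor the number of mice behind an array. Each group had 1 array, so no difference below has a replicate check, and no test or p-value between the groups was possible.

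The arrays shared a slide and a scan. Of 43020 gene spots, 76.26% were well above background on the TG+STZ array and 75.04% on the WT+STZ array. Signals were brighter on the TG+STZ array as a whole, with a 75th percentile of 2040 intensity units against 1930 on the WT+STZ array. Each difference below is a log2 value of TG+STZ minus that of WT+STZ, taken after that percentile had been subtracted from each array. The ± values are the error that the scanner software gives for the spots of both arrays, about 0.20 for a bright gene with 1 probe, and they leave out the spread between animals. For bright spots this error was close to a fixed share of the signal, such as 298 of 2977 units for Sirt1 in TG+STZ. Repeated spots of a probe scattered less, with a median log2 SD of 0.052 (TG+STZ) and 0.053 (WT+STZ) over 314 probes. A difference within the scanner error is therefore not shown to be measurement noise. Over the 15975 genes measured on both arrays the SD of the differences was 0.26 around a median of 0.00, and the middle 95% lay between -0.52 and 0.49.

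The dissected tissue held RNA of glomeruli and of tubules. All 12 podocyte markers were well above background on both arrays. Podxl, which encodes podocalyxin of the podocyte surface, read 1399 units in TG+STZ and 1508 in WT+STZ, and Nphs1 (nephrin) 471 and 827. All 12 proximal tubule markers were also well above background, among them Lrp2 (megalin) at 171979 units in TG+STZ and 166517 in WT+STZ, and Slc34a1 (a phosphate transporter) at 166974 and 160501. Umod, a marker of the loop of Henle, read 306908 and 280541 units. A sirtuin signal in this mixture cannot be assigned to 1 cell type, and fewer cells of a type cannot be told apart from less RNA per cell.

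Sirt1, the gene named by the transgenic label, was close to equal on the 2 arrays. SIRT1 deacetylates histones and transcription factors such as p53, FoxO proteins and PGC-1alpha. Its probe (A_55_P2030428, accession NM_019812), the only one among the probes named here, read 2977 units in TG+STZ and 2625 in WT+STZ, a ratio of 1.13 before scaling. The scaled difference was 0.10 ± 0.20, or 1.07-fold, less than the scanner error. Of all measured genes, 47.5% lay further from 0 than Sirt1, and 3182 genes (19.9%) lay within 0.05 of its difference. The 1000 probes nearest to it in signal had a median difference of 0.02, and their middle 95% ran from -0.35 to 0.35. The probe's sequence was not used here, so whether the transcript of the transgene carries it was not tested, and this value is no check of the genotype.

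The promoter window of Sirt1 is shown because Sirt1 is the gene that the genotype label names. The window is 300 bases around the RefSeq start site at chr10:63338986-63339285 on the minus strand of GRCm38.p6, written 5′ to 3′ in the direction of the gene. Capitals mark the hexamer CACGTG, an E-box that the clock proteins CLOCK and BMAL1 and the MYC family can bind, which is the same on both strands.
Sirt1: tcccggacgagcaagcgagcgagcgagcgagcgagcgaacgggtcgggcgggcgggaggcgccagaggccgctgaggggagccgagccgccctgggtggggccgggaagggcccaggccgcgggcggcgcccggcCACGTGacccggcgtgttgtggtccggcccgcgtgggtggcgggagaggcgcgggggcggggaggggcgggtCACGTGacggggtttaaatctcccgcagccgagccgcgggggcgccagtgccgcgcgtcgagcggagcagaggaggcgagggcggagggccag
The hexamer occurs 2 times in the Sirt1 window and in none of the windows of the other 6 genes, and 7.15% of 32851 promoter windows in the table hold it. The Sirt1 window was also the richest in CpG of the 9 windows of the family, with 47 CpG and 79.0% G and C, against medians of 7 CpG and 52.7% over all windows. The motifs were chosen after the sequences had been read, and a match is no evidence of binding.

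Sirt6 stood furthest from 0. SIRT6 deacetylates histone H3 and is known for DNA repair and for repression of glycolytic genes. Its brighter probe (A_55_P2072468) read 1220 units in TG+STZ and 1216 in WT+STZ, a scaled difference of -0.07 ± 0.20. Its dimmer probe (A_55_P2185794) read 95.8 units in TG+STZ and 121.7 in WT+STZ, a difference of -0.42 ± 0.21. The mean of both was -0.25 ± 0.15, or 0.842-fold. This was the only member beyond its own scanner error, against 24.3% of all measured genes. Both probes carry the accession NM_181586 and should read the same gene, yet their differences lay 0.35 apart. Of 3479 genes with 2 measured probes, 7.99% had a wider gap, and the median gap was 0.08. Differences also spread more widely around the dim probe. Among the 1000 probes nearest to it in signal the middle 95% ran from -0.63 to 0.75, against -0.37 to 0.49 around the brighter probe. This spread can hold differences of expression as well as noise, and their parts were not tested. The lower Sirt6 mean rested on the dim probe, and the brighter probe alone gave -0.07.

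Sirt6 has 2 windows in the table, and the upstream one is shown because Sirt6 was the member furthest from 0. It covers chr10:81627517-81627816 on the minus strand of GRCm38.p6 (RefSeq), 5′ to 3′. Capitals mark CCGGAAG read on the other strand, a core bound by the ETS family of transcription factors.
Sirt6: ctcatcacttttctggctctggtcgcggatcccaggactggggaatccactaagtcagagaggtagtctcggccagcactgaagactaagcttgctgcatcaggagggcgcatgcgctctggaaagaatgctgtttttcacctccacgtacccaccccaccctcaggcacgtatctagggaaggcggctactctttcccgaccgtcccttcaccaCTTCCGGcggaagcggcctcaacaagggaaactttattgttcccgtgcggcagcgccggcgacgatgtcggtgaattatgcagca
CCGGAAG, searched on both strands, was in 3 of the 9 windows of the family, 1 each of Sirt3, Sirt6 and Sirt7, and in 8.86% of all windows. The Sirt6 window that is not shown does not hold it. The differences of these 3 genes were 0.07, -0.25 and -0.02, so they did not lie on 1 side of 0. GGGCGG, also searched on both strands and the core of the GC box bound by SP1, was in 6 of the 9 windows and in 35.7% of all windows.

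Sirt7, the nucleolar member, associates with ribosomal DNA transcription. Its brighter probe (A_51_P352264) read 16578 units in TG+STZ and 15464 in WT+STZ, a difference of 0.02 ± 0.20. The dimmer probe (A_55_P2045697) read 911.5 units in TG+STZ and 897.4 in WT+STZ, a difference of -0.06 ± 0.20. The gene's mean was -0.02 ± 0.14. The probes differed 18.2-fold in brightness on the TG+STZ array and 17.2-fold on the WT+STZ array although both carry the accession NM_153056, and their differences between the arrays lay 0.08 apart.

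Sirt2 deacetylates alpha-tubulin as well as nuclear proteins. Its probe (A_52_P547447, NM_022432) read 7013 units in TG+STZ and 6645 in WT+STZ. The scaled difference was 0.00 ± 0.20, the smallest of the family, and the ratio before scaling was 1.06.

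The mitochondrial members lay slightly above 0, each within its error. Sirt3, the main mitochondrial deacetylase, read 28094 units in TG+STZ and 25426 in WT+STZ (A_55_P2075140, NM_022433), a difference of 0.07 ± 0.20. Sirt5, which removes succinyl, malonyl and glutaryl groups, had the highest difference of the family. Its probe (A_51_P411909, NM_178848) read 3345 units in TG+STZ and 2868 in WT+STZ, a difference of 0.14 ± 0.20, and 34.8% of all genes lay further from 0. Sirt4, known as an ADP-ribosyltransferase and lipoamidase that acts on glutamate dehydrogenase and pyruvate dehydrogenase, had 2 probes of accession NM_001167691. They read 1557 and 502.6 units in TG+STZ, against 1451 and 467.3 in WT+STZ. The Sirt4 probes gave 0.02 ± 0.20 and 0.03 ± 0.20, the closest pair of the family, and the gene's mean was 0.02 ± 0.14. Among the 1000 probes nearest in signal the median difference was 0.05 for Sirt3 and 0.01 for Sirt5. For the brighter and dimmer Sirt4 probes it was 0.01 and -0.03. With quantile and loess normalization Sirt3 stood at 0.00 and 0.02.

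**Figure D1:**
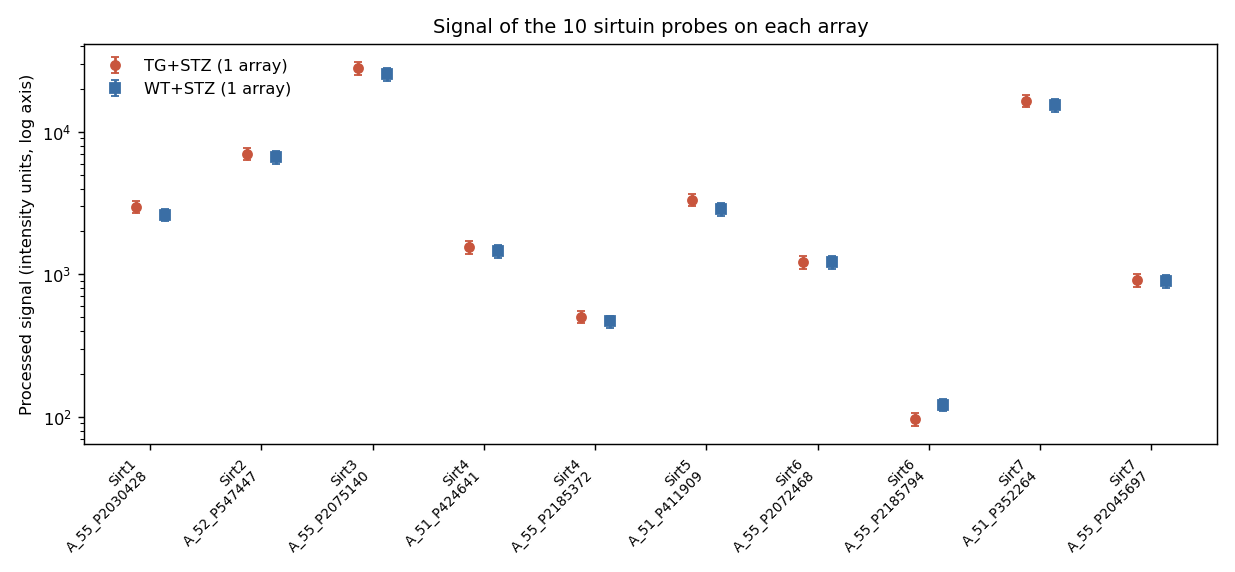
Processed signal in intensity units on a log axis for each of the 10 sirtuin probes, with TG+STZ (circles) left of WT+STZ (squares), 1 array each, and bars for the scanner software's error. The signal was higher on the TG+STZ array for 9 probes before scaling and lower for 1, the dim Sirt6 probe at 95.8 against 121.7 units, and the probes of Sirt7 lay 18.2-fold apart in TG+STZ and 17.2-fold in WT+STZ.

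**Figure D2:**
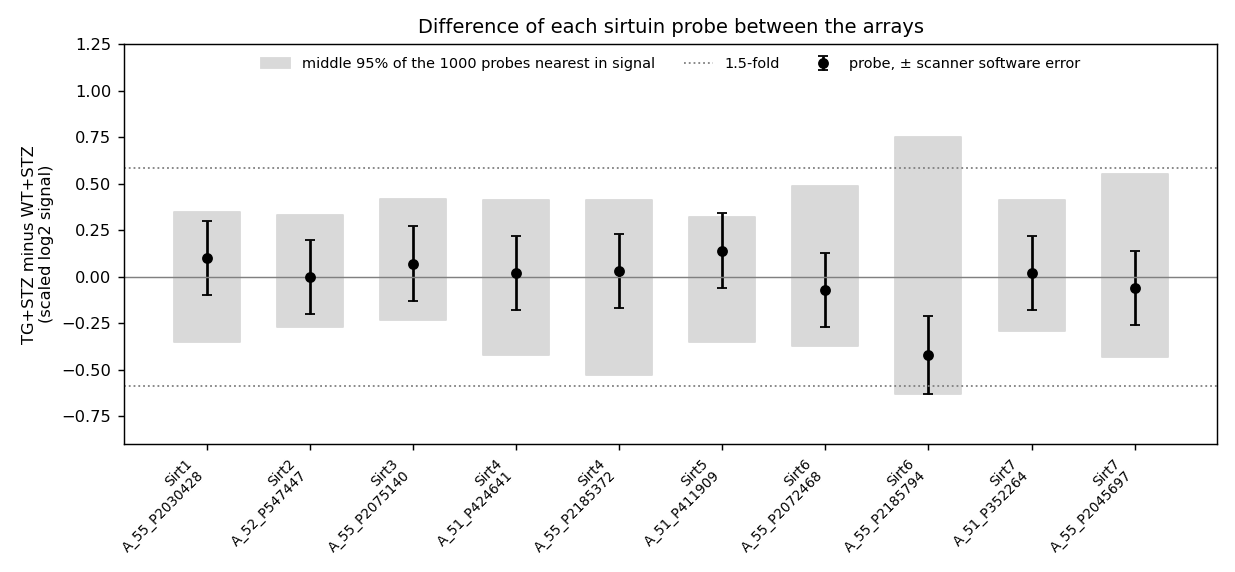
TG+STZ minus WT+STZ in scaled log2 signal for each probe, with bars for the scanner error, grey boxes for the middle 95% of the 1000 probes nearest in signal, and dotted lines at 1.5-fold. All 10 probes lay inside their boxes, and the dim Sirt6 probe at -0.42 was the furthest from 0.

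The brightness of a probe also depends on its sequence, so ranks of signal describe the probes and give no order of RNA levels between the genes. Among all gene probes of its array, the Sirt3 probe stood at the 94.9th percentile in TG+STZ and the 94.8th in WT+STZ. The brighter Sirt7 probe stood at the 92.6th and 92.7th, the Sirt2 probe at the 86.9th and 87.1st, the Sirt5 probe at the 80.4th and 79.5th, and the Sirt1 probe at the 79.2nd and 78.6th. The brighter Sirt4 and Sirt6 probes followed at the 72.9th and 70.3rd percentile in TG+STZ, against the 72.7th and 70.9th in WT+STZ. The dimmer probes of Sirt7 and Sirt4 stood at the 67.4th and 61.5th percentile in TG+STZ and the 67.7th and 61.2nd in WT+STZ, and that of Sirt6 at the 44.8th and 47.4th. The order of the 10 probes was the same on both arrays. With steps of up to 18.2-fold between probes of 1 gene, and a median step of 4.01-fold in TG+STZ and 3.89-fold in WT+STZ over the 3479 genes with 2 measured probes, neighbours in this order were closer in signal than the 2 probes of Sirt6 or of Sirt7 were.

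As a family the sirtuins showed no shared direction. Their median difference was 0.02 over 7 genes, beside 0.00 over all measured genes, and the members ran from -0.25 to 0.14. Sirt1, Sirt3, Sirt4 and Sirt5 were above 0, and Sirt6 and Sirt7 below it, with Sirt2 at 0.00. None of the 7 passed 1.5-fold in either direction, where 3.66% of all measured genes did. All 7 lay inside the middle 95% of all genes and 4 inside the middle 50%, which ran from -0.10 to 0.09. How many members stood above 0 depended on the processing. Without centring 6 were above 0, as 68.8% of all measured probes were, and 6 were above 0 with median centring or centring on spike-in probes. With the brightest probe of each gene 5 were above 0, and with normexp background correction 3. The median of all genes shifted as well. It was 0.08 without centring, 0.03 and 0.04 with median and spike-in centring, 0.01 with the brightest probe and -0.05 with normexp. Over all settings the family median lay 0.01 to 0.04 above the median of all genes.

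**Figure D3:**
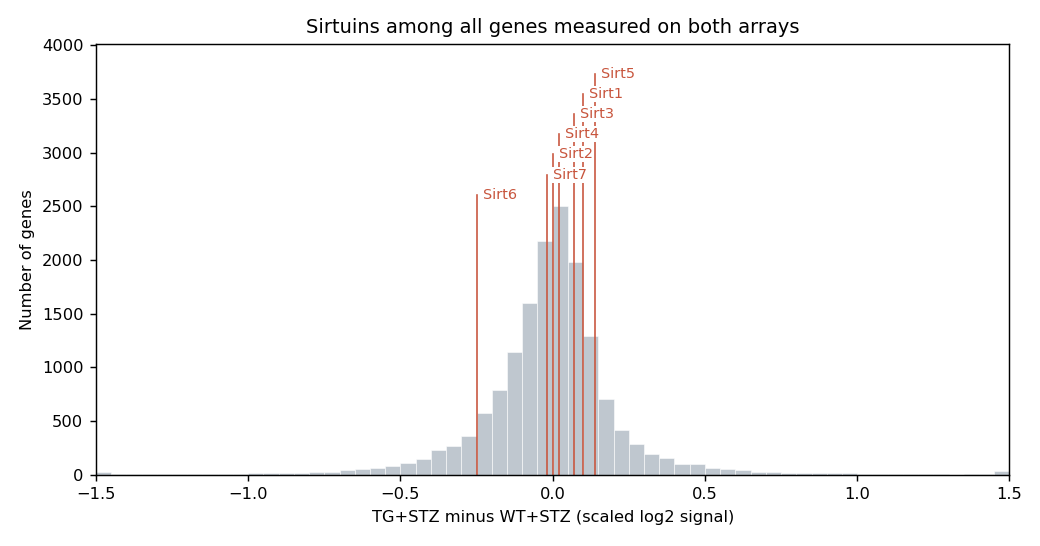
Number of genes (vertical axis) by TG+STZ minus WT+STZ in scaled log2 signal (horizontal axis, bins of 0.05) over the 15975 genes measured, with lines at the 7 sirtuins. The 50 genes beyond 1.5 on either side are counted in the end bins, and every sirtuin lies in the central part of the distribution, with Sirt6 at -0.25 apart from the other 6.

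Markers of other cells differed between the arrays. Of the 15975 genes measured, 8135 (50.9%) were above 0 and 7840 below. Sums of signal are given before scaling. Over all measured genes the sum was 109757362 units in TG+STZ and 101322979 in WT+STZ. All 4 measured fat cell markers of 8 listed were higher in TG+STZ, by 0.34 to 4.82. Their summed signal was 16913 units in TG+STZ and 11609 in WT+STZ, of which Fabp4, the member nearest to 0, gave 15379 and 11503 units. Adipoq, the fat cell hormone adiponectin, was well above background in TG+STZ alone (155.8 against 7.1 units) and at least 13.9-fold higher there. So were Ucp1 (274.4 against 3.6 units, at least 24.5-fold) and Plin1 (46.8 against 10.6 units, at least 4.17-fold). Lep was well above background on neither array. Fibroblast markers were higher for 7 of 8, with sums of 24006 and 17227 units, among them Col1a1 at 0.53. Leukocyte markers were lower for 8 of 8 measured, with a median of -0.47 and sums of 2252 units in TG+STZ and 2543 in WT+STZ, among them Ptprc, which encodes CD45, at -0.27. Collecting duct markers were lower for 7 of 8, with a median of -0.43 and sums of 79358 and 86714 units. Loop and distal tubule markers were lower for 7 of 8, with a median of -0.15 and Umod at 0.05 as the exception, and endothelial markers were lower for 7 of 8, with a median of -0.09. Proximal tubule markers were lower for 8 of 12, with a median of -0.02 and values from -0.23 to 0.27. Mesangial and smooth muscle markers were lower for 6 of 8, with a median of -0.10 and values from -0.35 to 0.15. Podocyte markers were lower for 8 of 12, with a median of -0.07 and values from -0.89 to 0.34. The lowest of them, Nphs1 at -0.89 ± 0.20, was the only podocyte marker past 1.5-fold, where 3.66% of all measured genes were. The part of these cells in the sirtuin values was not tested.

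The zinc-dependent deacetylases (Hdac1 to Hdac11), which remove acetyl groups without NAD, gave a similar picture. All 11 were measured, 5 above and 6 below 0, with a median of -0.01. Of the 11, 0 passed 1.5-fold, where 3.66% of all measured genes did. The furthest were Hdac9 at -0.29 ± 0.22 (48.4 units in TG+STZ and 55.9 in WT+STZ), Hdac7 at -0.17 ± 0.20 and Hdac1 at 0.10 ± 0.12. The last, a class I deacetylase of corepressor complexes, had 3 probes between 0.06 and 0.14.

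Of 10 genes that act on SIRT1 or its expression, 5 were above and 5 below 0, with a median of -0.01. Ccar2, whose protein DBC1 inhibits SIRT1, read 1125 units in TG+STZ and 1100 in WT+STZ, a difference of -0.05 ± 0.20. Rps19bp1, whose protein AROS activates SIRT1, read 5874 and 5485 units, a difference of 0.02 ± 0.20. Elavl1, whose protein HuR binds the SIRT1 mRNA, was at 0.14 ± 0.14, and Senp1, which removes SUMO from SIRT1, at -0.23 ± 0.21. The 1 member of 10 past 1.5-fold, where 3.66% of all genes were, was Foxo3, a stress-response transcription factor, at -0.72 ± 0.23 from a dim probe (37.4 units in TG+STZ and 58.3 in WT+STZ). With normexp Foxo3 stood at -0.41 and was no longer past 1.5-fold.

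Among 25 genes of SIRT1 substrates, 12 were above and 13 below 0, with a median of -0.01. Of these, 3 were more than 1.5-fold lower and 0 more than 1.5-fold higher, where 1.91% and 1.75% of all genes were. The lowest was Notch1, a cell surface receptor, at -0.94 ± 0.20 (1438 units in TG+STZ and 2618 in WT+STZ). Arntl, which encodes the clock protein BMAL1, stood at -0.70 ± 0.20 (1199 and 1844 units), and Foxo3, which is in both lists, at -0.72. Each of the 3 rested on 1 probe. With normexp 2 of the 3 were past 1.5-fold, without Foxo3. With no filter on dim probes or with the laxer detection flag it was also 2, because Notch1 then had 2 probes and a mean of -0.45. These are transcript signals, and the acetylation of the proteins was not measured.

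Of 18 genes of proteins that mitochondrial sirtuins act on, 16 were measured. Of the 16, 12 were above 0, where 50.9% of all measured genes were, with a median of 0.05. These genes were bright, with a median signal of 24500 units in TG+STZ and 20700 in WT+STZ. The 1000 probes nearest in signal to the Sirt3 probe, at 28094 units in TG+STZ, also had a median difference of 0.05. With loess on signal the median of the list was 0.02. Past 1.5-fold were 0 of the 16, against 3.66% of all measured genes. The furthest were Acadl, a long-chain acyl-CoA dehydrogenase and SIRT3 substrate, at 0.24 ± 0.20, Mlycd, the malonyl-CoA decarboxylase that SIRT4 acts on, at 0.23 ± 0.20, and Glud1, glutamate dehydrogenase, at 0.21 ± 0.14 (43478 units in TG+STZ and 35627 in WT+STZ). The urea cycle gene Otc and the urate oxidase gene Uox were not well above background on either array.

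Genes that SIRT6 or SIRT7 is known to repress or act on had a median of -0.04, with 4 of 14 above and 10 below 0. Of all measured genes, 50.9% were above 0. Pdk4, a kinase that inhibits pyruvate dehydrogenase, was the only one past 1.5-fold, at 0.71 ± 0.20 (1929 units in TG+STZ and 1119 in WT+STZ). Of all measured genes, 1.75% were more than 1.5-fold higher, and the Pdk4 value rested on 1 probe. Pfkp, a phosphofructokinase, stood at -0.24 ± 0.15 and the glucose transporter gene Slc2a1 at -0.22 ± 0.20.

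Of 23 genes of NAD supply and use, 20 were measured, 14 above and 6 below 0, with a median of 0.06. With loess on signal the median of this list was 0.03. Of all measured genes, 50.9% were above 0. Nampt, the rate-limiting enzyme of NAD salvage and so of the sirtuins' cosubstrate, read 7594 units in TG+STZ and 6635 in WT+STZ, a difference of 0.12 ± 0.20. Parp1 and Cd38, which compete with sirtuins for NAD, stood at 0.00 ± 0.20 and -0.17 ± 0.20. Nnmt, which methylates nicotinamide, was the only 1 of the 20 past 1.5-fold, where 3.66% of all measured genes were. Its difference was 0.65 ± 0.21 (158 units in TG+STZ and 95.3 in WT+STZ), and with normexp it stood at 0.34 and was not past 1.5-fold. Nmrk1, a kinase of nicotinamide riboside, followed at 0.52 ± 0.20 (4002 and 2643 units) and passed 1.5-fold only without centring, at 0.60, and the dim gene Nmrk2 stood at -0.26 ± 0.41.

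**Figure D4:**
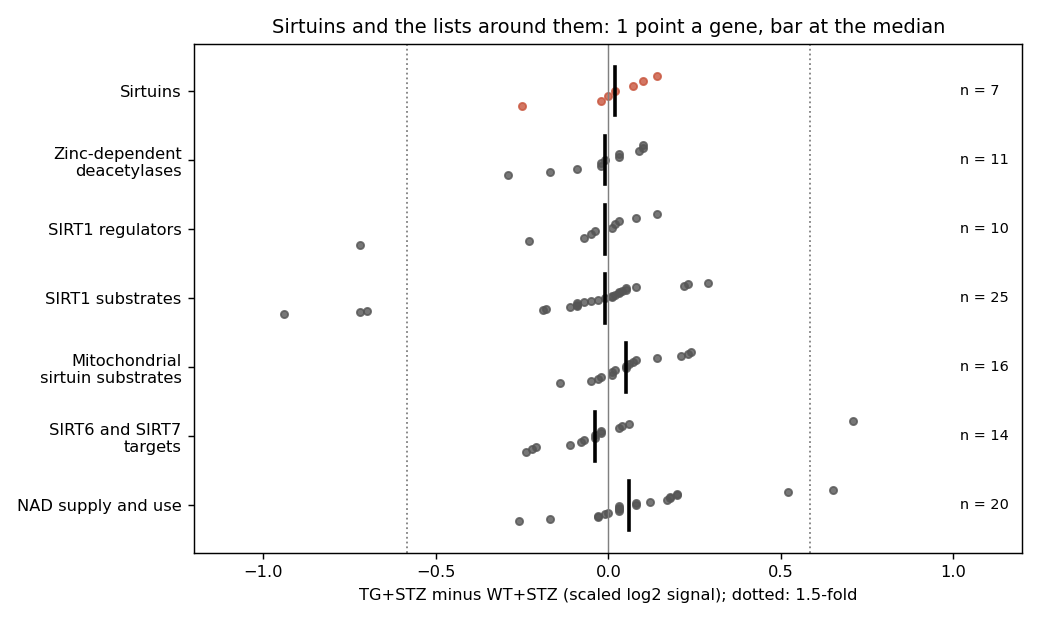
TG+STZ minus WT+STZ in scaled log2 signal for each measured gene of the sirtuin family and of 6 related lists, with 1 point a gene, a bar at the list median and dotted lines at 1.5-fold. The sirtuins and the 11 zinc-dependent deacetylases all lie between the dotted lines, outside which 3.66% of all measured genes lie. Every list median lies between -0.04 and 0.06.

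Apart from Sirt6, each gene stayed within its scanner error of the reported value under the other settings. Over the reported and 13 other settings, Sirt1 ran from 0.08 to 0.18, Sirt5 from 0.10 to 0.22 and Sirt3 from 0.00 to 0.14, with the highest value of each from signals left without centring. Sirt6 was below 0 in all 14 and ran from -0.27 to -0.07, the last with its brighter probe alone. By itself the brighter probe ran from -0.10 to 0.01, the last without centring, and the dimmer probe from -0.45 to -0.35. Sirt2, Sirt4 and Sirt7 took values on both sides of 0, with extremes of -0.04 and 0.10. In all 14 settings 0 of the 7 genes passed 1.5-fold. Several settings could not move any sirtuin: the value table, the looser filters, the median of the probes and the kept outlier spots. All sirtuin probes passed the filter, none was an outlier, and no sirtuin had over 2 probes. The brightest probe could move only the 3 genes with 2 probes.

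**Figure D5:**
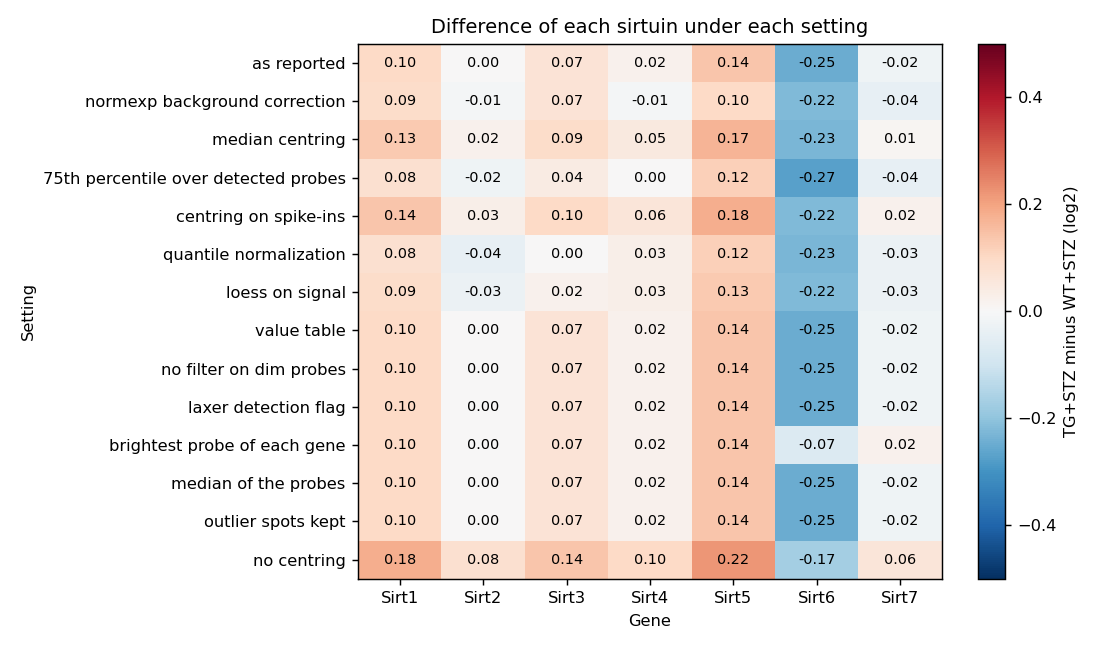
Difference of each sirtuin (columns, log2, TG+STZ minus WT+STZ) under the reported and 13 other settings (rows), with the value printed in each cell and a colour scale from -0.50 to 0.50. Sirt1 and Sirt5 stay above 0 and Sirt6 below 0 in every row, and Sirt6 is nearest to 0 where only the brightest probe is used. The rows of the value table, looser filters, median of the probes and kept outlier spots had to repeat the reported values.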

How the data were processed

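Signals came from Agilent 1-colour arrays (Cy3), 1 for TG+STZ and 1 for WT+STZ. The deposited scanner tables hold intensity on a linear scale and other columns that are flags of 0 or 1. Per the file headers, the authors ran Feature Extraction 10.7.1.1 (the submitters' processing notes name 10.3.1.1), which subtracted background and removed trends within each array. The deposited value table held the same intensity as the processed signal of the scanner tables at all 44397 spots of each array (equal with no tolerance).

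Control spots and spots marked as outliers (109 in TG+STZ and 114 in WT+STZ) were left out. Processed intensity was taken to log2 minus each array's 75th percentile over gene spots, and spots of a probe, then probes of a gene, were averaged. A probe entered if it was well above background and unsaturated on both arrays. Accessions were named through a RefSeq table of GRCm38.p6. This matched 26410 probes and left 13016 unnamed, which may hold further sirtuin probes. The array design names mm9, so only the promoter windows, read from the RefSeq promoter table, have coordinates. A gene counted as past 1.5-fold at 0.58 on the log2 scale, with no test. Precision is limited by the number of arrays.

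All 7 sirtuins are named, as are the 3 furthest members of each related list and a few fixed genes, of which 1 is not reported here. The members and lists were chosen with earlier results of these data known. Other settings were normexp with an offset of 50, other centrings, quantile and loess (span 0.3) normalization, the value table, other filters and other ways to combine probes. The steps were tested on simulated data with a probe noise SD of 0.25. There 46.0% of genes changed by 0.6 and 32.0% of those changed by -0.6 passed 1.5-fold in that direction. Of genes changed by 1.0 and by -1.0, 98.0% passed, and of unchanged genes 1.45%. This noise was chosen and was the same for dim and bright probes, and 0.6 lies next to the cut of 0.58. A change near 1.5-fold can be missed under such noise, and these shares are not measured error rates of the arrays. Python 3.11.15, numpy 2.4.6, pandas 2.3.3, matplotlib 3.10.9, R 4.3.3 and limma 3.58.1 were used.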

Additional observations from a re-analysis of the deposited data

How the results depend on the processing

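The family median ran from -0.01 to 0.10 over the settings and from 0.01 to 0.05 with each member left out in turn, and its distance from the median of all genes stayed between 0.01 and 0.04. The brightest probe alone brought Sirt6 to -0.07, because this leaves out its dim probe. Without centring, a setting added after the data had been seen, all genes shifted by 0.08, and the list medians were 0.07 for zinc-dependent deacetylases, 0.07 for SIRT1 substrates, 0.13 for mitochondrial substrates, 0.04 for SIRT6 and SIRT7 targets and 0.14 for NAD genes, with 2 NAD genes past 1.5-fold. Normexp brought SIRT1 substrates to -0.06, left 0 NAD genes and 0 SIRT1 regulators past 1.5-fold, and put Sirt1 at the 80.4th and 79.8th signal percentile (TG+STZ and WT+STZ), Sirt2 at the 87.9th and 88.1st and Sirt4 at the 73.8th in WT+STZ. Under normexp the median of all genes was -0.05, and the cause of these moves was not tested. SIRT1 substrates past 1.5-fold numbered 2 to 3 over the settings. No paired analysis was possible because each group had 1 array, and for the same reason no replicate could be left out and no slide block fitted. Low signal over background limits the dim Sirt6 probe and dim genes such as Foxo3 and Nmrk2.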
